A study of Zea mays with 322 samples.

Results

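MIR167h and MIR167a are 2 of the 64 maize MIRNA loci whose small RNA reads were counted in this series. They were chosen by locus name (Cluster_229850 and Cluster_114884) and not by a rule on measured values, though with earlier results of these data known. Both carry the miR167 family name. miR167 is a plant microRNA family best known for directing cleavage of transcripts of auxin response factors, the transcription factors that switch genes on or off when the hormone auxin is sensed. Several MIRNA loci of a genome can make family members, and a read is counted at the locus where the aligner places it. The loci were found on the maize W22 genome. MIR167h lies at chr6:91955005-91955255, a span of 251 bases on the long arm of chromosome 6, and it is in the segment whose dosage was varied in the TB-6Lc translocation line (6L). MIR167a lies at chr3:121684031-121684270, a span of 240 bases that overlaps the annotated gene Zm00004b017267, and it is in the segment varied in the TB-3La line (3L). In every other line both loci are in trans, that is, outside the varied segment.

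The RNA that the study lists for each locus is printed here to show how far these listed RNAs differ. The seed (bases 2 to 8) is in capitals, and MIR167c on chromosome 5, the third MIR167 locus of the table, is given for comparison.
MIR167h: aGAUCAUGuugcagcuucacu
MIR167a: gAUCAUGCaugacagccucauu
MIR167c: aUCAUGCUguggcagccucacu
The longest run shared by MIR167h and MIR167a was GAUCAUG, 7 bases that start at position 2 in MIR167h and at position 1 in MIR167a. MIR167a and MIR167c shared the 8 bases CAGCCUCA. No other locus of the 64 had the same listed RNA or the same seed as any of the 3. The sources used here do not say which arm of the precursor each listed RNA comes from. The listed RNAs and their seeds may therefore not be those of the strand that acts on auxin response factor transcripts. The counts take in all reads placed on a locus, not the listed RNA alone. One predicted cleavage site for each is shown because it gives the pairing of the listed RNA, with capitals marking bases that form Watson-Crick pairs with it.
MIR167h site in Zm00001d040305: guUGAAGCUGCAACAUGAgCU
MIR167a site in Zm00001d026618: ggaGAGGCcGUCgUGuAUGAUC
The first site had 18 Watson-Crick pairs, 1 G-U pair and 2 mismatches over 21 bases, and the second had 16, 4 and 2 over 22 bases. Neither target transcript was measured here.

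The series comprised 322 small RNA libraries from leaves of 45-day-old maize plants in 81 groups. Diploid aneuploids carried 1 copy (monosomy), 3 copies (trisomy) or 4 copies (tetrasomy) of a chromosome arm segment attached to a B chromosome, a dispensable extra chromosome, and each was set against diploid plants with 2 copies. The trisomy and tetrasomy of Dp4, an interstitial segment that spans the chromosome 4 centromere, had their own diploid controls. Disomies carried 2 copies of a segment in an otherwise haploid plant and were set against haploids with 1 copy. Haploids, triploids and tetraploids were each set against their own diploids, where the triploids came from the inbred line Mo17 and the tetraploids from W22. W22 diploids with 1 B chromosome (1B) were set against plants with none (0B). The translocation lines can carry B chromosome material that their controls lack, so the dosage of the segment and the presence of that material cannot be told apart within a line, and A segments of different lines can differ in genetic background. The table holds miRNA loci only, so the leaf label was not checked against marker genes. In bulk leaf, fewer cells of a type and less of the RNA per cell cannot be told apart.

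There were 312 samples after 4 libraries were left out and 6 pairs of plants of a group, whose counts differed by no more than sampling noise, were counted as 1 sample each. Mapped reads ranged from 339141 to 3892832 per library and reads at the 64 loci from 7139 to 246556. Levels are given as RPM, reads per 1000000 mapped reads. Changes are log2 fold changes from edgeR's quasi-likelihood test on counts, which scales libraries by TMM over the 64 loci, with a standard error (SE). A change was called at a Benjamini-Hochberg false discovery rate (FDR) under 0.05 over the loci with a mean of at least 0.5 RPM in the 2 groups compared. Nothing in the labels says that the plants of a group came from separate sowings, so the tests measure the spread between plants.

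MIR167h was an abundant and steadily detected locus. It had 30 to 759 reads per library with a median of 235, which was 131 RPM, and ranked 6 of 64 by mean RPM. It made up 0.319% of the reads at the 64 loci. Of the reads at the 3 MIR167 loci, it held a median of 81.3% per library, and that share ranged from 25.3% to 94.1%. MIR167c held a median of 18.3% and MIR167a 0.178%. MIR167a was at the edge of detection, with 322 reads in all, 0 reads in 152 of the 322 libraries, 1 read in 95, 2 reads in 48 and 3 or more in 27. The highest count of MIR167a was 24, and its mean of 0.513 RPM ranked 48 of 64. It had no read in any library of 7 groups and 3 reads or fewer in 49 groups, so most of what follows on MIR167a is given as counts. In the RefSeq annotation of B73 maize, another inbred used here for gene order only, 10 MIR167 genes are listed. The miRNA gene after MIR167a is MIR167g, and the one before MIR167h is MIR160g.

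Across the groups the mean level of MIR167h ran from 58.8 ± 21.3 RPM (SD, n = 4) in 3S trisomy to 278 ± 64.7 RPM (n = 4) in 8L monosomy. The lowest means after 3S trisomy were those of 1S trisomy, 66.1 ± 19.1 RPM (n = 4), and 10L18 tetrasomy, 68.5 ± 12.6 RPM (n = 4). Below 8L monosomy came the haploid control of 7L, 9L and 10L19, 250.5 ± 22.3 RPM (n = 5), and 7L monosomy, 246 ± 35.5 RPM (n = 4). Neighbours in this order differed by less than their spread.

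The controls themselves spanned much of that range. Diploid controls listed by the study under Experiments 1, 2, 3 and 7 had group means from 74.8 ± 8.56 RPM (triploid series, n = 3) to 119 ± 18.8 RPM (haploid series, n = 4). Those of Experiment 6 had 145 ± 16.3 RPM (1L, n = 3) and 174 ± 35.9 RPM (Dp4, n = 4), and those of Experiment 5 ran from 174 ± 54.2 RPM (4S, n = 4) to 230.0 ± 27.3 RPM (9L, n = 4). In Experiment 4 the diploids shared by 1S, 3S and 5L had 129 ± 25.8 RPM (n = 4) and the 6L diploids 222 ± 49.3 RPM (n = 4). Over the 14 diploid controls of the aneuploids, MIR167h differed between groups (edgeR F test in a fit of all groups, FDR = 7.78e-13), as did 32 of 48 loci tested. Between Experiments the FDR was 1.07e-13, and between the control groups of the same Experiment it was 0.0721, a value on which the settings differed. That test passed with mapped reads (FDR = 0.0148) or locus totals (0.00104) as library size, with no filter on low loci (0.00257) and with all plants kept apart (0.00288), and not with a filter at 1 RPM (0.139). Over the 8 haploid controls the FDR was 0.0198, with 15 of 48 loci called. Between their pools it was 0.0146, and between controls of one pool 0.793. The call between pools was lost with locus totals as library size (FDR = 0.0506), no filter (0.0756) and a filter at 1 RPM (0.0662). Changes and their tests below are therefore taken between an experimental group and its own control. Plants and control were from 1 Experiment or pool except for 1S disomy, with 1 of 6 plants from another pool, and 3L disomy, with 2 of 4.

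**Figure D1:**
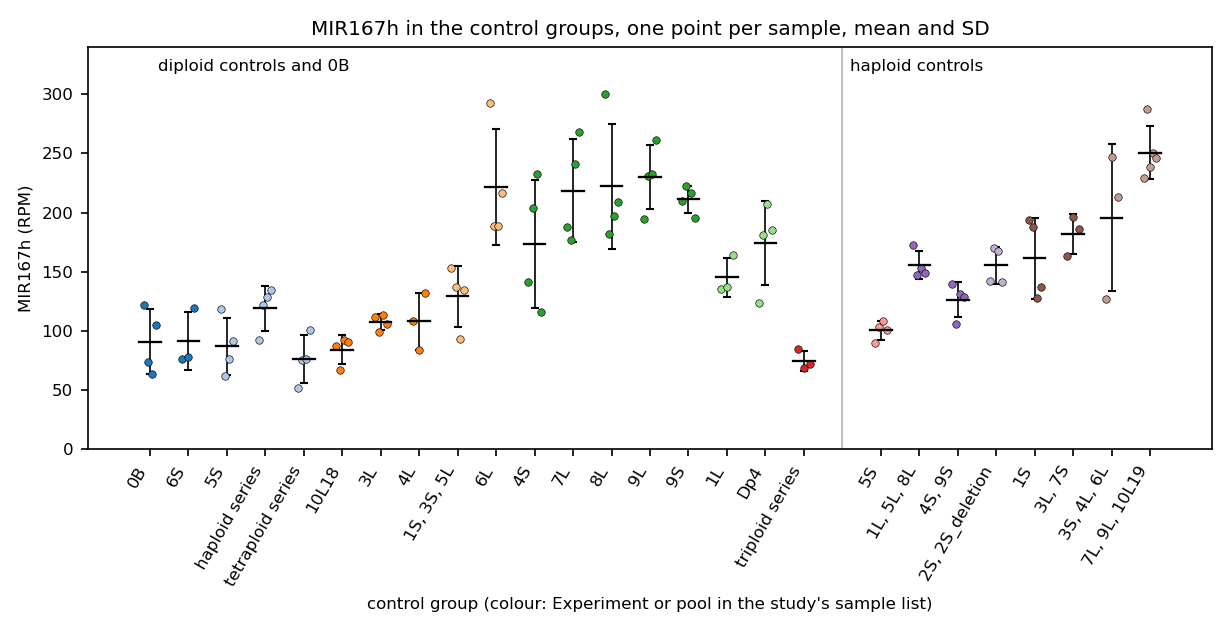
MIR167h level (RPM, vertical axis) in each control group (horizontal axis), with one point per sample, a bar for the mean and whiskers for the SD, coloured by the Experiment or pool in which the study lists the group. Diploid controls of Experiment 5 sit at 174 to 230.0 RPM on average, above those of Experiments 1, 2, 3 and 7.

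MIR167h was called in 10 of the 55 comparisons with an own control, lower in 8 and higher in 2. Over all loci and the same comparisons 10.8% of the tests were called. By kind, it was called in 3 of 14 monosomies, where 14.1% of all tests were called, in 2 of 16 trisomies against 4.93%, in 0 of 4 tetrasomies against 6.06%, and in 5 of 17 disomies against 16.4%. None of the 3 ploidy comparisons was called, where no locus at all was called by edgeR and 5 of 123 tests had an unadjusted p under 0.05. In RPM, MIR167h did not overlap its control in 15 of the 55 comparisons, where 17.7% of all tests did not overlap. Of these 15, MIR167h lay above the control in 4 and below it in 11. Split by direction, the calls at FDR under 0.05 were 1 monosomy higher and 2 lower, against 6.34% and 7.8% of all tests. Among trisomies 2 calls were lower and none higher, against 2.61% and 2.32%. Among disomies 4 calls were lower and 1 higher, against 7.08% and 9.36%. At an unadjusted p under 0.05 edgeR gave 19 of the 55 comparisons, beside 512 of 2427 tests of all loci. The tetrasomies had 2 of the 19, beside 27 of 165 tests of all loci in tetrasomies. The 4 tetrasomies set against trisomies of their line had none called, where 1.76% of all tests were called, and log2 changes from -0.56 to -0.03. DESeq2 called 15 of the 55, for which no share over all loci is given.

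**Figure D2:**
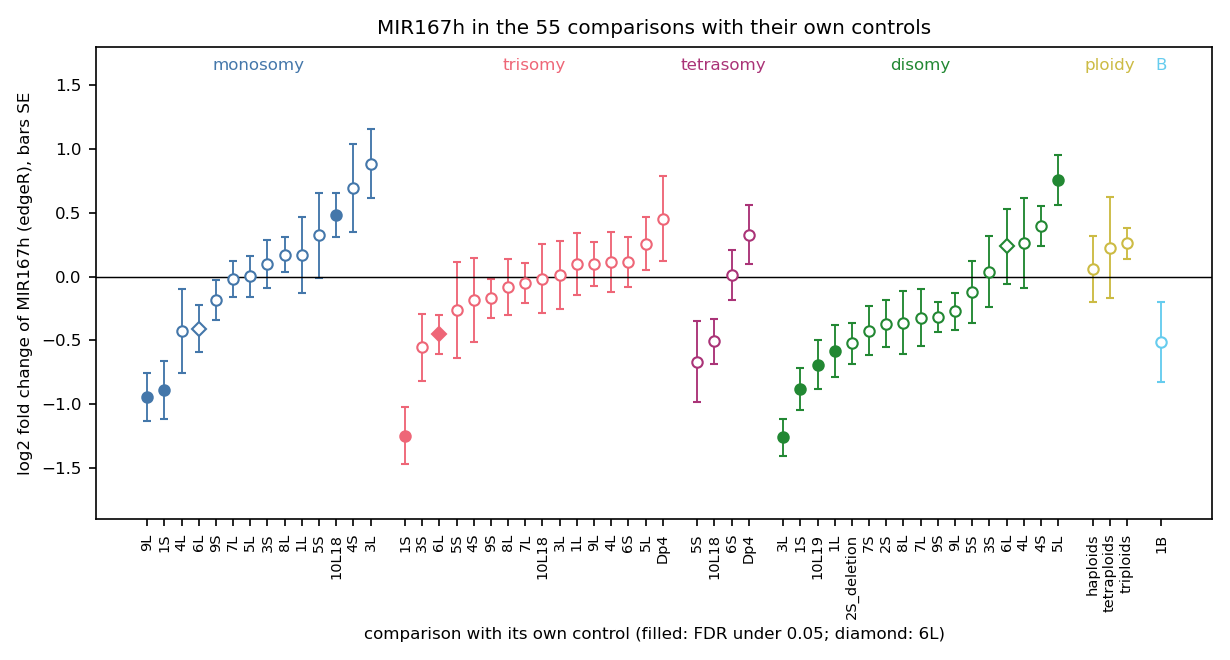
Log2 fold change of MIR167h (vertical axis, edgeR, bars SE) in the 55 comparisons with their own controls, ordered by size within each kind. Filled symbols mark the 10 changes called at FDR under 0.05 and diamonds the line 6L. Monosomies ran from -0.94 to 0.89 and disomies from -1.26 to 0.76.

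The copy number of MIR167h itself was varied in the 6L line. The 6L diploid controls had 293, 189, 189 and 217 RPM, and the 6L monosomies had 159, 177, 191 and 192 RPM. The monosomies were at the low end of the controls and overlapped them. The log2 fold change was -0.41 (SE 0.19, edgeR FDR = 0.0896), which did not pass the test, and 35.7% of the loci were called in this comparison. It was called by DESeq2 (-0.61) and, with edgeR, without control plant 3 (-0.60, FDR = 0.00120) or monosomy plant 3 (-0.48, FDR = 0.0413). Plant labels of the 6L trisomies all end in H, and those of the 6L diploid controls and monosomies all end in e. What the letters mean is not given, so dosage and this difference cannot be told apart in the trisomy comparison. The 6L trisomies had 112, 174, 152 and 86.9 RPM. With 3 copies of the locus every plant was below every control, and MIR167h fell by 0.45 on the log2 scale (log2 fold change -0.45, SE 0.16, FDR = 0.0359), where 11.4% of loci were called. With mapped reads as library size the value was -0.76 (FDR = 0.00243), where the median of all loci was -0.34 in place of -0.02. An exact two-sided permutation test of mean RPM gave p = 0.0286 for the trisomy, the smallest p that 4 against 4 allows, and 0.229 after adjustment over 8 such tests. The trisomy call rests on few plants, since it was lost without trisomy plant 1 or 4 or control plant 1 or 4, down to a log2 fold change of -0.27 (FDR = 0.581) without control plant 1. The 6L disomies had 202, 230.0 and 155 RPM against 127, 247 and 213 RPM in their haploid controls. These overlapped, with means of 196 ± 37.8 and 196 ± 61.98 RPM (n = 3 each), and the log2 fold change was 0.24 (SE 0.29, FDR = 0.596), where 15.7% of loci were called and the median of all loci was 0.24 as well. Its sign was not fixed, with -0.00175 where mapped reads were the library size and -0.30 to 0.31 with a plant left out.

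The 6L effect was also set against the mean effect of the other lines in a fit of all groups. The difference was -0.49 (log2, SE 0.24, FDR = 0.133) in monosomy, -0.36 (SE 0.24, FDR = 0.512) in trisomy and 0.02 (SE 0.26, FDR = 1.00) in disomy. None passed the edgeR test. DESeq2 called the monosomy difference (-0.61, FDR = 0.00708) and, with the opposite sign, the disomy difference (0.69, FDR = 0.00546). MIR160g, a locus of the same 6L segment whose family acts on other auxin response factor transcripts, fell in 6L monosomy (log2 fold change -0.999, SE 0.32, FDR = 0.0120) and in 6L trisomy (-1.15, SE 0.33, FDR = 0.00507). Its 6L disomy value was 0.32 (SE 0.37, FDR = 0.582).

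In trans, the widest pair of opposite changes of MIR167h was in 3L, the line that varies MIR167a, singled out after its values were seen. The 3L diploid controls had 112, 99.2, 114 and 105.8 RPM. The 3L monosomies had 213, 225, 261 and 256 RPM, all above the controls, and the ratio of the mean RPM was 2.22. The log2 fold change was 0.89 (SE 0.27) with FDR = 0.0554, just outside the threshold, where 6.67% of loci were called. With mapped reads as library size it was 1.15 and was called (FDR = 0.000276), where the median of all loci was 0.31 in place of 0.07. Leaving out a plant in turn gave 0.83 to 0.96, with calls without control plant 2, 3 or 4 (FDR = 0.00863, 0.0335 and 0.0214) and none without the others. The 3L trisomies had 93.2, 116, 83.5 and 131 RPM, on both sides of the controls, with a log2 fold change of 0.01 (SE 0.27, FDR = 0.991), where 2.44% of loci were called. The 3L disomies had 97.6, 80.8, 81.2 and 90.5 RPM against 164, 197 and 186 RPM in the haploid controls shared with 7S. With the second copy of the segment all 4 plants were below all 3 controls, and MIR167h fell by 1.26 on the log2 scale (log2 fold change -1.26, SE 0.14, FDR = 0.000415), where 11.1% of loci were called. This call remained in all 9 alternative analyses and without any of the 7 plants in turn, from -1.47 to -1.16. Without the 2 disomy plants from another pool the log2 fold change was -1.44.

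The 1S line showed lower MIR167h in each of its 3 dosage conditions. The diploid controls shared by 1S, 3S and 5L had 153, 137, 92.7 and 134 RPM. The 1S monosomies had 76.6, 79.1, 64.7 and 84.6 RPM and the 1S trisomies 71.4, 83.9, 38.9 and 70.2 RPM. Both groups were below all of their controls. MIR167h fell by 0.89 in monosomy (log2 fold change -0.89, SE 0.23, FDR = 0.00543) and by 1.25 in trisomy (log2 fold change -1.25, SE 0.22, FDR = 0.000514), where 44.7% and 9.3% of loci were called and the median changes of all loci were -0.29 and 0.13. The 2 comparisons share their control plants. The 1S monosomy call was lost without monosomy plant 1, 2 or 3, down to -0.41 (FDR = 0.213). The 1S trisomy call remained without any of the 8 plants. The 1S disomies ranged from 79.3 to 152 RPM (median 117, n = 6) and their haploid controls had 194, 188, 127 and 137 RPM. These overlapped in RPM, and the log2 fold change was -0.88 (SE 0.16, FDR = 0.000745), with 31.8% of loci called. With mapped reads as library size it was -0.45 and not called (FDR = 0.0632).

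Among the monosomies, 9L had the lowest log2 fold change of MIR167h, though not the lowest level. The 9L diploid controls had 195, 231, 233 and 262 RPM and the monosomies 150.2, 134, 117 and 124 RPM. All 4 monosomies were below all controls, and MIR167h fell by 0.94 on the log2 scale (log2 fold change -0.94, SE 0.19, FDR = 0.000286), where 12.5% of loci were called. This call remained in all 8 alternatives and without any plant in turn. The 9L trisomies, from 223 to 269.6 RPM, had a log2 fold change of 0.10 (SE 0.17, FDR = 0.982), where none of 44 loci was called or had an unadjusted p under 0.05. The 9L disomies, from 171 to 229 RPM, were below their haploid controls of 229.5 to 288 RPM, with a log2 fold change of -0.27 (SE 0.15, FDR = 0.230), where 16.3% of loci were called.

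**Figure D3:**
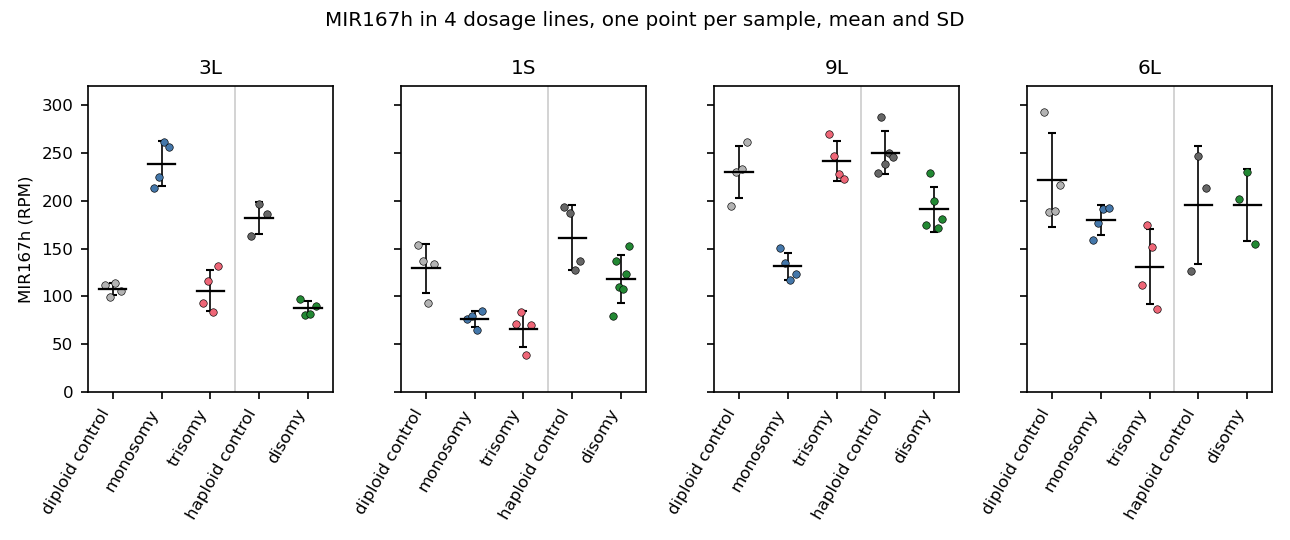
MIR167h level (RPM, vertical axis) in the lines 3L, 1S, 9L and 6L, with one point per sample, a bar for the mean and whiskers for the SD. Each panel shows the diploid control, monosomy and trisomy to the left of the grey line and the haploid control and disomy to its right. The 3L monosomies (213 to 261 RPM) lie above their controls and the 9L monosomies (117 to 150.2 RPM) below theirs.

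The 10L18 line went the other way in monosomy. Its diploid controls had 87.1, 66.5, 92.1 and 90.9 RPM and its monosomies 112, 113, 110.0 and 126 RPM. The groups did not overlap, and MIR167h rose by 0.48 (log2, SE 0.17, FDR = 0.0394), where 25.6% of loci were called and the median change of all loci was 0.44, close to that of MIR167h. The call was lost whichever of the 8 plants was left out, with FDR up to 0.446, and DESeq2 gave 0.11 (FDR = 0.684). The 10L18 trisomies had 85.7, 77.3, 65.2 and 88.5 RPM and the tetrasomies 69.0, 84.7, 53.9 and 66.5 RPM, with log2 fold changes of -0.02 (SE 0.27, FDR = 0.949) and -0.51 (SE 0.18, FDR = 0.127), where 2.44% and 9.52% of loci were called.

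Disomies in the haploid background included the remaining calls. The haploid control shared by 1L, 5L and 8L had 172, 147, 153 and 149 RPM. The 5L disomies had 208, 233, 237 and 229 RPM, all above it, and MIR167h rose by 0.76 (log2, SE 0.20, FDR = 0.0151), where 13.3% of loci were called. With mapped reads as library size the log2 fold change was 0.54 (FDR = 0.0696), and the call was lost without disomy plant 1 (FDR = 0.0624) or control plant 2 (0.0513) or 3 (0.0862). The 1L disomies had 108, 131, 235 and 184 RPM, on both sides of the control, and the ratio of mean RPM was 1.06. The TMM-scaled log2 fold change was nevertheless -0.58 (SE 0.21, FDR = 0.0133), with 51.1% of loci called, and with mapped reads as library size it was 0.08 (FDR = 0.720). The median of all loci tested in 1L disomy moved from 0.03 to 0.67 between these scales, so the direction of MIR167h in 1L disomy depends on the scale. The call was also lost without disomy plant 2 (FDR = 0.0847) or control plant 1 (0.0526). The 10L19 disomies had 126, 171, 143, 189 and 129.6 RPM against 229.5, 288, 239, 250.3 and 246 RPM in the haploid control shared with 7L and 9L. All 5 disomies were lower, and MIR167h fell by 0.69 on the log2 scale (log2 fold change -0.69, SE 0.19, FDR = 0.0113), where 14.9% of loci were called. This call was lost without control plant 5 (FDR = 0.0637).

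Further groups stood apart in RPM without passing the test. The 3S trisomies had 80.3, 32.01, 70.6 and 52.5 RPM, all below the diploid controls shared with 1S, and a log2 fold change of -0.55 (SE 0.26, FDR = 0.140), where 17.5% of loci were called. With mapped reads as library size this value was -1.14 and was called (FDR = 0.00192), where the median of all loci was -0.84 in place of -0.22. The 2S disomies had 111, 82.9, 97.3 and 112 RPM and the 2S_deletion disomies, whose segment lacks a part, 97.2, 119 and 91.0 RPM. Their shared haploid controls had 142, 170.04, 167.3 and 142 RPM, above both groups, and the log2 fold changes were -0.37 (SE 0.18, FDR = 0.149) and -0.52 (SE 0.16, FDR = 0.111), where 17.8% of loci and none of 43 were called by edgeR, the latter with 10 at an unadjusted p under 0.05.

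Averaged over lines with equal weight, the trans effect on MIR167h was 0.03 (log2, SE 0.07, FDR = 0.981) over 13 monosomies other than 6L and -0.10 (SE 0.07, FDR = 0.737) over 14 trisomies. Over 16 disomies it was -0.25 (SE 0.07, FDR = 0.00202), and 20 of 48 loci were called in that mean contrast. The disomies had 12 of 17 log2 fold changes below 0. The effect differed between lines within each kind. The F test of equal effects gave FDR = 2.19e-08 over 14 monosomies, 1.56e-05 over 15 trisomies and 8.67e-10 over 17 disomies. At that level 28, 19 and 40 of 48 loci were called, so differences between lines were common among the loci.

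MIR167h passed no test made here in the B chromosome and ploidy groups, and only the triploids lay apart from their diploids in RPM. The 0B plants had 122, 73.4, 63.3 and 105 RPM. The 1B plants had 100.04, 68.8, 73.6 and 57.3 RPM, of which the plants at 73.6 and 57.3 RPM were counted as 1 sample. The groups overlapped. The log2 fold change was -0.51 (SE 0.32, FDR = 0.773), where 2.33% of loci were called, and the exact permutation test of mean RPM gave p = 0.457. The paper, in its own edgeR analysis, counted MIR167h as differentially expressed in 1B against 0B and excluded it from its further analysis. Why that result differs from the one here was not tested. Haploids had 115 ± 28.1 RPM (n = 4) against 119 ± 18.8 RPM (n = 4) in their diploids, with a log2 fold change of 0.06 (SE 0.26, FDR = 0.918). Triploids had 107 and 108 RPM, above 84.4, 68.2 and 71.6 RPM in their diploids, with a log2 fold change of 0.26 (SE 0.12, FDR = 0.852). That separation rests on 2 plants against 3, and 13% of all tests in the ploidy comparisons did not overlap in RPM. Tetraploids had 79.3 ± 25.2 RPM (n = 4) against 75.96 ± 20.1 RPM (n = 4), with a log2 fold change of 0.23 (SE 0.39, FDR = 0.783). The tetraploid effect minus the triploid effect was -0.01 (SE 0.49, FDR = 1.00).

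**Figure D4:**
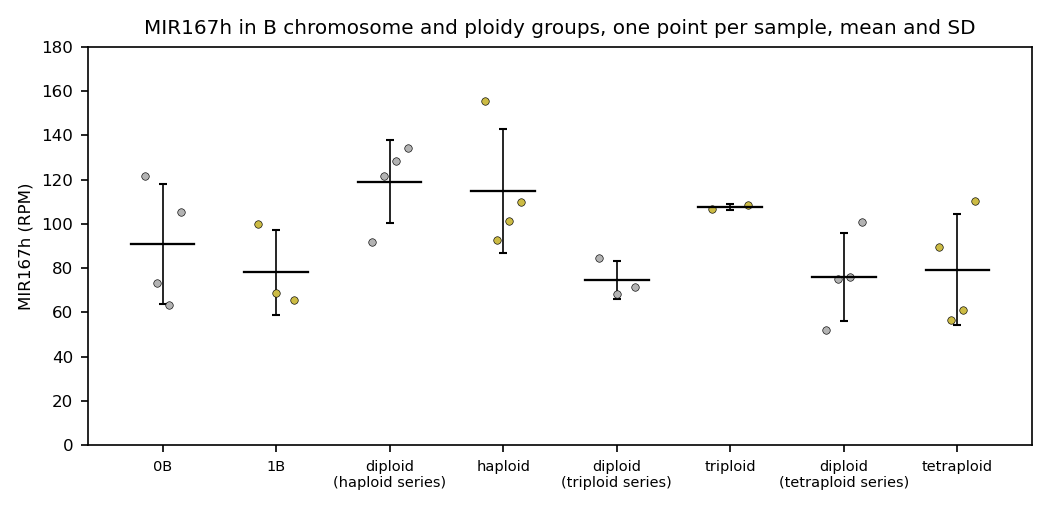
MIR167h level (RPM, vertical axis) in the 0B and 1B plants and in the haploid, triploid and tetraploid series with their diploids (grey), with one point per sample, a bar for the mean and whiskers for the SD. The 2 triploids at 107 and 108 RPM lie above their diploids, and the other pairs of groups overlap.

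MIR167a could be tested in 25 of the 55 comparisons, those with a mean of at least 0.5 RPM, and 23 comparisons had 3 reads or fewer in both groups. A low locus can reach that mean through the group in which it is high, so the tested comparisons are not a neutral sample. Intervals on its counts are exact 95% Poisson or binomial intervals and cover counting error only. In the 3L line, where its own dosage varied, the diploid controls had 1, 0, 1 and 3 reads, the monosomies 0, 2, 2 and 1, and the trisomies 1, 3, 0 and 0. The summed counts were 5, 5 and 4. The monosomy to control ratio of summed counts per mapped read was 0.936 (0.215 to 4.07) and that of the trisomy 0.654 (0.130 to 3.04), so a change in proportion to the copy number was not detectable at this depth. The edgeR value of the 3L monosomy was -0.31 (SE 1.09, FDR = 0.919). The 3L disomies had 0, 0, 0 and 1 reads against 1, 1 and 2 in the haploid controls, a ratio of 0.128 (0.00261 to 1.30). The exact permutation test of mean RPM gave p = 0.0571 for the 3L disomy, the smallest that 4 against 3 allows.

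The highest pooled levels of MIR167a were in disomies of 3 lines, 1S, 1L and 8L, named here after their counts were seen. The lowest of these, 8L, had 1.47 RPM (0.734 to 2.63), an interval that also held groups of other kinds. Among them were Dp4 tetrasomy (1.44 RPM, 3 reads) and the 2S haploid controls (1.36 RPM, 7 reads). So were 7L monosomy (1.05 RPM, 9 reads) and 4L monosomy (1.00 RPM, 11 reads). The 1S disomies had 2, 24, 6, 4, 7 and 7 reads, and their haploid controls 2, 2, 1 and 1. Pooled over plants this was 2.82 RPM (2.09 to 3.71) against 0.592 (0.217 to 1.29), a ratio of 4.75 (2.04 to 13.6). Without the plant of 24 reads the 1S disomies still had 1.84 RPM (1.20 to 2.70). The edgeR value was 1.72 (log2, SE 0.70, FDR = 0.0655), and without that plant 1.18 (FDR = 0.106). The 1L disomies had 2, 3, 6 and 8 reads and the haploid control of 1L, 5L and 8L had 1, 0, 0 and 0. All 4 plants were above the control, and MIR167a rose by 2.95 (log2, SE 1.15, FDR = 0.0131), where 51.1% of all loci were called. This was its only call, 1 of 25 comparisons tested or 4.0%, beside 10.8% of the tests of all loci. The ratio of summed counts was 15.99 (2.54 to 664), a wide interval set by the single control read. The call was lost without control plant 3 or 4 (FDR = 0.0515 and 0.0569) and under DESeq2, which called MIR167a nowhere. The 8L disomies, against the same control, had 2, 2, 5 and 2 reads, a ratio of 11.4 (1.66 to 492) and an edgeR value of 3.03 (SE 1.28, FDR = 0.0582), where 4.17% of loci were called. Here too MIR167a passed the filter only through the disomies (mean 1.59 RPM). The 5L disomies, also against that control, had 0, 4, 0 and 2 reads.

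**Figure D5:**
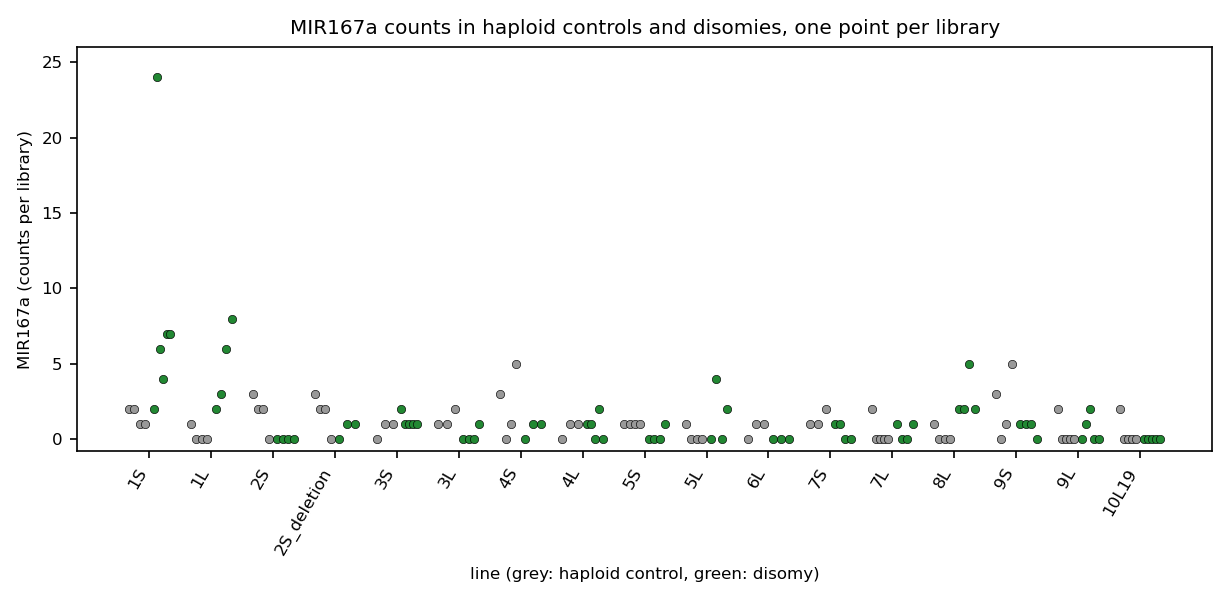
MIR167a reads per library (vertical axis) in the haploid control (grey) and disomy (green) of each of 17 lines (horizontal axis), with one point per library. The 1S disomies reach 24 reads and the 1L disomies 8, and most other libraries hold 0 to 3 reads.

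The opposite pattern was seen in the 2S disomies, with 0 reads in all 4 plants against 3, 2, 2 and 0 in the haploid controls. Set at a floor of 3 reads over the group, the disomy was 2.86-fold lower, a value that takes the 7 control reads as exact. The exact Poisson intervals overlapped, up to 0.586 RPM in the disomy against 0.548 to 2.81 RPM in the control. The edgeR FDR was 0.0538, in a test where MIR167a passed the filter only through the control (mean 1.38 RPM). The 2S_deletion disomies had 2 reads in all. No read was found in 10L19 disomy or 6L disomy, in any of the 3 groups of 6S, or in the diploids of the haploid series. In the 6S diploid controls, trisomies and tetrasomies a floor of 3 reads is 0.845, 0.805 and 0.878 RPM. The upper limits of their exact Poisson intervals were 1.04, 0.990 and 1.08 RPM. Summed over groups of several Experiments or pools, and so as a description only, MIR167a had 0.546 RPM (0.409 to 0.714) in the diploid controls of the aneuploids, 0.546 (0.415 to 0.706) in monosomies, 0.391 (0.284 to 0.525) in trisomies and 0.388 (0.156 to 0.800) in tetrasomies. Haploid controls had 0.637 (0.444 to 0.886) and disomies 0.777 (0.640 to 0.935), or 0.292 (0.200 to 0.412) without 1S, 1L and 8L. Those 3 lines were removed for their high counts, so the lower remainder follows from that choice. It cannot be set against the haploid controls, from which no group was removed. The intervals of monosomies, trisomies and diploid controls overlapped. In the B chromosome and ploidy groups there were 0 to 3 reads per group, so no change of MIR167a was detectable there.

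Both loci were set beside the other auxin-related miRNA loci of the table. Each was tested in all 55 comparisons, and 10.8% of the tests of all loci were called. MIR167c was called in 16, 13 higher and 3 lower. MIR160g was called in 8, 1 higher and 7 lower. MIR393b, whose family acts on auxin receptor transcripts, was called in 5, all higher. MIR390b, which starts the formation of small RNAs against another group of auxin response factors, was called in 10, 6 higher and 4 lower. MIR167h had a median log2 fold change of -0.05 over the 55 comparisons, and MIR167c one of 0.26.

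The loci whose group means most resembled MIR167h over the 81 groups, as Pearson correlation of log2(RPM + 1), were Cluster_4527 (r = 0.59), Cluster_273394 (r = 0.56) and MIR171g (r = 0.55). The correlation of MIR167h with the reads at all loci was 0.38, and with MIR167a it was 0.21. For MIR167a the closest were MIR171e (r = 0.35), Cluster_308182 (r = 0.34) and MIR171j (r = 0.30). MIR171e lies in the segment varied in 1S and Cluster_308182 in that varied in 8L, lines whose disomies had high MIR167a. MIR171j lies in the segments varied in 10L18 and 10L19, and MIR167a had no read in 10L19 disomy. Whether the copy number of these loci bears on the correlations was not tested. Group means of MIR167a rest on few reads, and Cluster_308182 had a mean of only 0.692 RPM. All values of a group come from the same libraries, so depth is shared, and the groups span Experiments and pools between which MIR167h levels differed in the controls. These correlations are descriptions.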

How the data were processed

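Small RNA libraries (TruSeq small RNA kit, RNA isolated with mirVana) were made from maize leaf. The authors trimmed reads with cutadapt 1.16, aligned them to the W22 genome with ShortStack, found MIRNA loci over all samples together, and deposited raw read counts per locus for each library. They also deposited RPM values, in which these counts were scaled to 1000000 mapped reads of the library. Reads that fit several family members were placed by the aligner, so near-identical loci can share reads. No deposited sample column was left unused.

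Groups were taken from the sample labels. Of the 322 libraries, 3 were left out for quality and 1 Dp4 trisomy library for uncertain dosage. In 6 pairs of a group the counts did not differ in a chi-square test over loci with at least 10 reads (p over 0.05), and each pair was counted as 1 sample. Counts were summed and RPM averaged in such a pair.

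Each comparison was fitted on its own with the edgeR 4.0.16 quasi-likelihood test in R 4.3.3, with TMM scaling of the locus totals, on loci with a mean of at least 0.5 RPM, and adjusted by Benjamini and Hochberg over those loci. Contrasts between comparisons came from 1 fit of all groups over 48 loci. Single values were also compared by two-sided exact permutation of samples. The 95% intervals of MIR167a cover counting error, and its floor was 3 reads. The script was tested on simulated data. Alternatives were mapped reads or unscaled locus totals as library size, DESeq2 1.42.0, no filter and a filter at 1 RPM, pairs kept apart, all libraries kept, same-pool plants, all groups in 1 fit, and leaving out each library. The named loci were the members, MIR167c, a fixed list of auxin-related loci, and the 3 loci most like each member by correlation of log2(RPM + 1). The members and lists were chosen with earlier results of these data known.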

Additional observations from a re-analysis of the deposited data

Results flagged for a closer look

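The effect on MIR167h differed between lines in each kind of aneuploid. The edgeR F values were 5.72 over 14 monosomies (FDR = 2.19e-08), 4.18 over 15 trisomies (FDR = 1.56e-05) and 5.66 over 17 disomies (FDR = 8.67e-10). For MIR167a the test passed over the disomies (F = 2.86, FDR = 0.000523), where 40 of 48 loci were called. It also passed without the 1S plant of 24 reads (F = 2.61, FDR = 0.00181, without the filter on low loci), where 41 of 64 loci were called. A pass over the disomies was thus common among the loci. The mean of MIR167a over all libraries was 0.513 RPM, just above the filter of 0.5 RPM and with its high disomies included. Its 2S, 6L and 10L19 disomies held 0 reads, so both passes of MIR167a are descriptions only.

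The 3L line was compared with the other lines after its values were seen, so these p-values are not independent of that choice. The MIR167h effect minus the mean of the other lines was 0.99 (log2, SE 0.24, FDR = 0.00132) in monosomy and -0.92 (SE 0.25, FDR = 0.00639) in disomy. Within 3L the monosomy effect minus the trisomy effect was 0.94 (SE 0.23, FDR = 0.00108), and the disomy effect minus the trisomy effect was -1.09 (SE 0.34, FDR = 0.0208).

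In the 6S tetrasomies 1 plant had 52.8 RPM of MIR167h while the other 3 had 94.7 to 95.1 RPM. The gap of the lowest plant was 0.991 of the range. This was the only such sample among 64 groups of MIR167h and 4 groups of MIR167a, where chance gives about 1 in 20 groups.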

How the results depend on the processing

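MIR167h was called in 9 to 15 of the 55 comparisons under the alternatives, against 10 as reported, and in 9 to 11 with a library left out. The share of all tests called, 10.8%, is given for the reported setting only. The MIR167h calls in 1S trisomy, 9L monosomy and 3L disomy remained in every alternative and without any library. Those in 1S monosomy and 10L19 disomy remained in every alternative. With mapped reads as library size 11 were called, 7 of them among the 10. The median of all loci moved by over 0.1 (log2) between the scales in 33 of 55 comparisons, by -0.62 to 0.64. MIR167a had 1 call as reported, 3 with mapped reads or all groups in 1 fit, 2 with locus totals, with no filter or with a filter at 1 RPM, 0 with DESeq2, and 0 to 2 with a library left out. The cause of these changes was not tested.

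The 6L monosomy value of MIR167h was -0.61 and called with DESeq2, and -0.60 to -0.26 with a library left out. The 6L trisomy call was lost with DESeq2 (-0.44, FDR = 0.0691) and with all groups in 1 fit (-0.46, FDR = 0.314). It was kept with mapped reads (-0.76, FDR = 0.00243), and left-out libraries gave -0.59 to -0.27. The 6L disomy value turned negative with mapped reads (-0.00175), no filter (-0.0517), all groups in 1 fit (-0.23) and as a difference of mean RPM (-0.0617), and ran from -0.30 to 0.31 with a library left out. The 6L monosomy effect minus the other lines was -0.75 with no filter (FDR = 0.00978) and -0.61 with DESeq2, and the disomy difference 0.69 with DESeq2, all called. The 3L trisomy value turned negative with mapped reads (-0.0210), locus totals (-0.52), DESeq2 (-0.0499), no filter (-0.22) and all groups in 1 fit (-0.0246), and ran from -0.0648 to 0.15 with a library left out. The 1L disomy value was 0.0834 with mapped reads, the haploid value -0.0493 with mapped reads (-0.14 to 0.22 with a library left out) and the tetraploid value -0.0538 with DESeq2 (-0.22 to 0.32). The tetraploid minus triploid effect ran from -0.32 to 0.11 with a library left out and was -0.46 with mapped reads, never called. The mean trans effect of monosomy was -0.0452 without 3L, -0.0330 without 4S, -0.00441 without 5S and -0.00307 without 10L18, alternatives chosen after seeing the data. The F value between haploid controls was 2.75 with no filter (FDR = 0.0524) and 2.12 at 1 RPM (FDR = 0.0864), neither called. MIR167a in 3L monosomy was 0.0530 RPM higher as a difference of mean RPM.

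No paired analysis was possible because replicate numbers were given in accession order and pair no plants across groups. MIR167a had 3 reads or fewer in 49 of 81 groups, and changes there were below detection.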
